A study of Mus musculus with 20 samples.

Results

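The chemokine ligand genes measured on the array were examined here across Aire knockout (KO) and wild-type (WT) mice of 3 strains. Members were the probe sets with exactly 1 gene symbol matching Ccl, Cxcl or Xcl followed by a digit, or equal to Cx3cl1, Pf4 or Ppbp. There were 53 such probe sets, and each gene was represented by the one with the highest mean over all arrays, which gave 35 genes of 18193 in all. A further 4 probe sets that carry several symbols, among them those of the Ccl19, Ccl21 and Ccl27 families, were not analysed here.

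The series compared Aire KO with WT mice, 1 thymus per array, on Affymetrix arrays of medullary thymic epithelial cells. There were 3 KO and 3 WT mice of B6, 4 KO and 4 WT mice of BALB, and 3 KO and 3 WT mice of NOD, all males aged 3 to 4.5 weeks. The cells were sorted by flow cytometry as negative for the leukocyte marker CD45, G8.8-positive (an epithelial marker), with intermediate Ly51 and high MHC class II. RNA was taken up in Trizol and amplified in 2 rounds, and the deposited values are RMA intensities on a linear scale, with no unit beyond that of the scanner. The sources used here do not describe the KO allele. Mice are called KO and WT as labelled, and a mouse is named by its strain, genotype and replicate number.

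Chemokines are small secreted proteins that bind G protein-coupled receptors and direct the migration of leukocytes. They are grouped by the spacing of their first cysteines into CC, CXC, XC and CX3C families, and by use into inflammatory ligands, which are induced at sites of damage or infection, and homeostatic ligands, which place cells within lymphoid organs. In the thymus they guide progenitors into the organ, thymocytes between cortex and medulla, and dendritic cells to the medullary epithelium. Aire is a transcriptional regulator of medullary epithelium known for switching on genes of peripheral tissues.

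The medians of the arrays ran from 86.3 to 90.9 units, and replicate arrays of a group correlated at 0.971 to 0.991 except B6 KO 2 with B6 KO 3, which correlated at 0.996. The difference between the 3' and 5' Gapdh probe sets was lowest in B6 KO 2, B6 KO 3 and B6 WT 2 (1.68 to 1.90 log2 units) and highest in B6 WT 1 (3.76), against 2.15 to 3.04 on the other arrays. The Aire probe set read from 9.31 to 12.04 log2 units over all mice and was higher in KO than in WT mice by 0.74 ± 0.14 (SE; limma, adjusted p = 0.00104), with the position of its probes relative to the altered part of the gene not given, so it did not check the genotype labels. Of 16 markers of class II high medullary epithelium, all 16 were measured, and their summed intensity was 61256 to 82958 units in KO and 56038 to 77314 units in WT mice. Dendritic cell and macrophage markers, 12 of 14 measured, summed to 4490 to 13301 units in KO mice and 5108 to 19010 units in WT mice although the gate removed CD45-positive cells, and were highest in mice 2 and 3 of both NOD genotypes. The median of all values was 89.4 units and 25% of them lay below 37.6 units. The levels of different probe sets cannot be set against each other, so each gene is compared only with itself.

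Most chemokine ligands were lower in Aire KO mice, and none passed the test as higher. Averaged over the 3 strains, 22 of 35 members were lower (limma on log2 intensity, Benjamini-Hochberg adjusted p under 0.05 over all 45037 probe sets), against 10.1% of all probe sets tested. None of the 35 was higher, against 10.5% of all probe sets. At an unadjusted p under 0.05, Ccl25, Ccl27a and Cxcl16 were higher, which is 3 of 35 against 20.3% of all probe sets. The members' median difference was -0.73 log2 units, against 0.06 over all probe sets and 0.01 over 1 probe set per gene. In whole sorted populations, fewer cells of a type and less RNA per cell cannot be told apart.

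The size of the falls varied widely among the members. At least 2-fold lower were 12 of 35, against 2.14% of all probe sets, namely Ppbp, Cxcl5, Cxcl13, Ccl1, Ccl11, Ccl8, Cxcl15, Pf4, Cxcl3, Ccl6, Ccl3 and Ccl9. KO averaged below WT in all 3 strains in 27 members, against 20.4% of all probe sets. Every KO mouse lay below every WT mouse of its strain, in all 3 strains, in 10 members: Ccl1, Ccl11, Ccl28, Cxcl15, Cxcl17, Cxcl5, Cxcl9, Pf4, Ppbp and Xcl1, against 3.17% of all probe sets. By their sample codes the mice other than B6 WT 1, which has no code, form 4 runs. Within these runs, 5 sets of KO and WT mice of 1 strain can be compared, of which 4 hold 2 KO and 2 WT mice and that of NOD mice 1 holds 1 of each, and B6 KO 1 has no partner. KO averaged below WT in all 5 sets in 24 of 35 members, against 13.9% of all probe sets, though these are the same mice as in the test. Ccl2, which fell, was lower in 4 of the 5 sets.

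**Figure D1:**
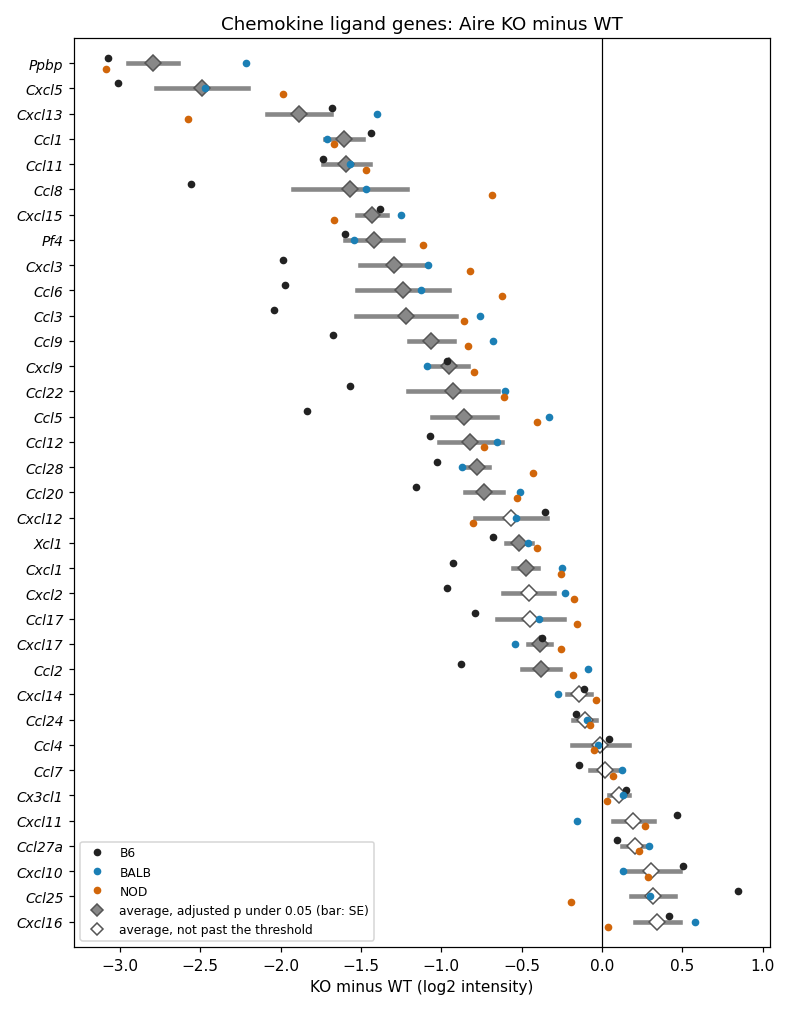
KO minus WT differences of the 35 chemokine ligand genes in log2 intensity. Circles give B6, BALB and NOD, and diamonds with bars give the average over strains and its SE, filled where the adjusted p was under 0.05. The averages run from -2.79 for Ppbp to 0.35 for Cxcl16, and 22 diamonds, all left of 0, are filled.

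The CXC ligands that attract neutrophils, most of them through the receptor CXCR2, held the largest falls. Of 6 members (Ppbp, Cxcl5, Cxcl15, Cxcl3, Cxcl1 and Cxcl2), 5 fell, with a median of -1.36 log2 units over the 6.

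Ppbp, the precursor of the neutrophil-activating platelet peptide, showed the largest fall. In B6 it read 34.1, 16.3 and 18.9 units in KO mice, against 196, 169.6 and 189.8 units in WT mice. BALB KO mice had 28.7, 22.2, 24.5 and 21.5 units and BALB WT mice 129, 125, 69.9 and 140.4 units. In NOD the values were 25.2, 18.2 and 23.5 units in KO mice, against 232, 132 and 217 units in WT mice. All 10 KO mice lay below 37.6 units, the level under which 25% of all values lay, and no KO mouse overlapped a WT mouse of any strain. The difference was -2.79 ± 0.15 log2 units (SE), a 6.94-fold fall with a limma adjusted p of 3.59e-10, and such folds are understated if background remains in the RMA values.

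Cxcl5, an epithelial neutrophil attractant, was next. Its intensity was 101, 237 and 123 units in B6 KO mice, against 868, 1636 and 1087 units in B6 WT mice. In BALB it was 108, 32.5, 57.7 and 109 units in KO mice and 393, 274, 291 and 659 units in WT mice. NOD mice had 112, 33.9 and 60.5 units in KO and 433, 222 and 149.7 units in WT. KO and WT mice did not overlap within any strain, with BALB KO 2 and NOD KO 2 the lowest of all mice. The average difference was -2.49 ± 0.29 log2 units (limma, adjusted p = 4.4e-06).

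Cxcl15, known as lungkine for its production by mouse lung epithelium, had a narrower spread. It lay at 98.8, 94.3 and 80.8 units in B6 KO mice, against 224, 246 and 240.3 units in B6 WT mice. In BALB it lay at 111, 95.6, 104 and 94.8 units in KO mice, against 223, 225, 232 and 285 units in WT mice. In NOD the KO mice had 71.3, 88.9 and 106 units and the WT mice 360.0, 273 and 218 units. No KO mouse of any strain reached the lowest WT mouse, and the difference was -1.43 ± 0.091 log2 units (limma, adjusted p = 2.38e-09). A further Cxcl15 probe set also fell, by 0.64 on the log2 scale (limma, adjusted p = 6.53e-06), so the size depends on the probe set.

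The remaining neutrophil attractants fell less. Cxcl3 ranged over 273 to 432 units in B6 KO mice against 1217 to 1655 units in B6 WT mice, 273 to 939 against 554 to 1835 units in BALB, and 496 to 721 against 951 to 1282 units in NOD. The BALB ranges of Cxcl3 overlapped, those of B6 and NOD did not, and the average difference was -1.30 ± 0.21 (limma, adjusted p = 0.000209). Cxcl1 fell by 0.48 on the log2 scale (limma, adjusted p = 0.000284), and 2 further Cxcl1 probe sets read -0.50 and -0.52 and passed as well. Its B6 ranges, 2584 to 3035 units in KO and 4616 to 6084 units in WT mice, lay well apart, while those of BALB, 3842 to 4892 and 4299 to 6482 units, overlapped. Cxcl2 stood at -0.46 ± 0.16 and just missed the threshold (limma, adjusted p = 0.0503; 8.61e-05 with mice of the same number as pairs).

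**Figure D2:**
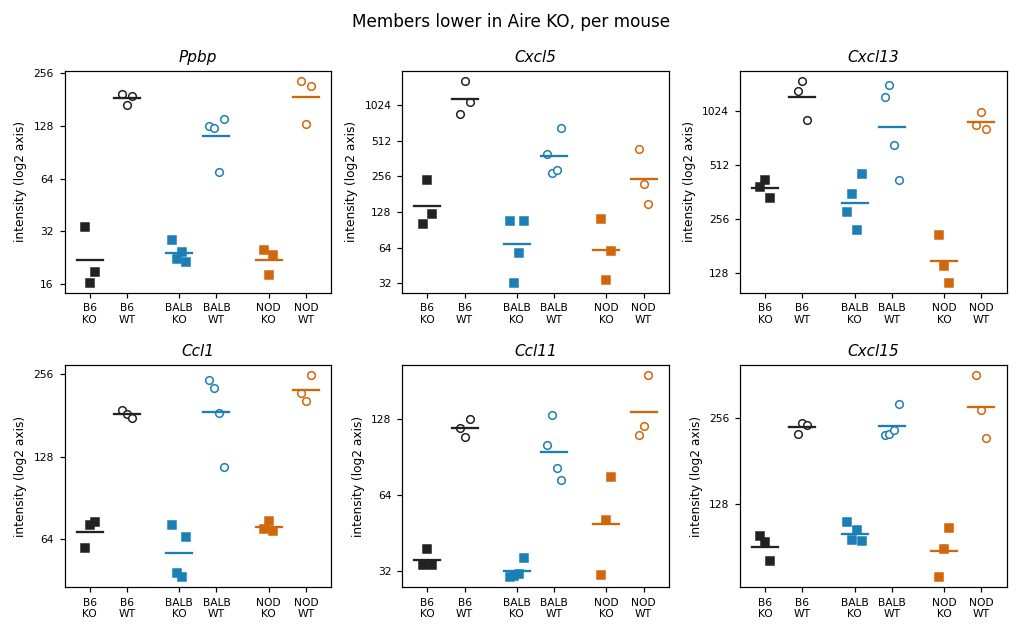
Intensity of 6 members that fell, 1 point per mouse (filled squares KO, open circles WT), on log2 axes in intensity units, with group means of log2 values as lines. In Ppbp, Cxcl5, Ccl1, Ccl11 and Cxcl15 the KO mice lie below the WT mice in each strain, and in Cxcl13 1 BALB KO mouse at 453 units lies above 1 BALB WT mouse at 422 units.

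These 6 genes and Pf4 lie next to each other on chromosome 5, in the order Cxcl5, Ppbp, Pf4, Cxcl3, Cxcl15, Cxcl1 and Cxcl2, with no other gene between them in RefSeq (GRCm38.p6). The 5 genes at one end of the row differed by -1.30 to -2.79 log2 units and the 2 at the other end, Cxcl1 and Cxcl2, by -0.48 and -0.46. Promoter sequences were at hand for 25 of the 35 members, and 23 had a single promoter. The 250 bases before the start of transcription are shown for Ppbp, Cxcl15, Cxcl1 and Cxcl2 of this row. Pf4 and Cxcl3 are not shown, and Cxcl5 had no promoter at hand. They are also shown for a pair of interferon-induced genes that lie close together and are described further on, of which Cxcl9 fell and Cxcl10 did not pass. Sequences are from RefSeq (GRCm38.p6), 5' to 3' on the strand of the gene. Capitals mark the motif TATAAA of the TATA box, the CCAAT box, the core of the interferon-stimulated response element and the NF-kB consensus, all searched on both strands, and overlapping matches of the NF-kB consensus run as 1 stretch. Ppbp lies at chr5:90768268-90768517, Cxcl15 at chr5:90794284-90794533, Cxcl1 at chr5:90890995-90891244 and Cxcl2 at chr5:90903649-90903898, all on the plus strand, and Cxcl9 at chr5:92328080-92328329 and Cxcl10 at chr5:92348890-92349139 on the minus strand.
Ppbp: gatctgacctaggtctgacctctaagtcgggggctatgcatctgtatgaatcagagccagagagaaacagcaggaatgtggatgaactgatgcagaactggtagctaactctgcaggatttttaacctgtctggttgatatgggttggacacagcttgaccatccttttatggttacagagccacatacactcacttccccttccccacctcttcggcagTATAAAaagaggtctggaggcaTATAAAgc
Cxcl15: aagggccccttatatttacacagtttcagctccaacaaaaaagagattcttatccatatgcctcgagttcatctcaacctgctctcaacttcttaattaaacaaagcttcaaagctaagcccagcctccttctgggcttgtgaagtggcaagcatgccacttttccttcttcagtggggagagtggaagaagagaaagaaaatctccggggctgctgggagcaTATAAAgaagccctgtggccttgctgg
Cxcl1: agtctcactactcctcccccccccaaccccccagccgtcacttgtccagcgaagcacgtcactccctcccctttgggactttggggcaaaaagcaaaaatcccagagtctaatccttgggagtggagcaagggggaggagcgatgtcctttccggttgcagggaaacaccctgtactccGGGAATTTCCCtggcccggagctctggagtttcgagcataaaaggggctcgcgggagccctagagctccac
Cxcl2: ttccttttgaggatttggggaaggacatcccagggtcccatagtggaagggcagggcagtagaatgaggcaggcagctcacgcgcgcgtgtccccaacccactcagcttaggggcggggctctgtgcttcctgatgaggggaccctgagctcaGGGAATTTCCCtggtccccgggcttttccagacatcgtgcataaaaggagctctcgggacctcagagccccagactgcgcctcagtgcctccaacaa
Cxcl9: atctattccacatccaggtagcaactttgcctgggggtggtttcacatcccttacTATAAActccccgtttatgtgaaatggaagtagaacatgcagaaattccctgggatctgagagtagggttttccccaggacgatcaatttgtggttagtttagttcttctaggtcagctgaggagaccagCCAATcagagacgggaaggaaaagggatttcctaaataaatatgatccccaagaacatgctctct
Cxcl10: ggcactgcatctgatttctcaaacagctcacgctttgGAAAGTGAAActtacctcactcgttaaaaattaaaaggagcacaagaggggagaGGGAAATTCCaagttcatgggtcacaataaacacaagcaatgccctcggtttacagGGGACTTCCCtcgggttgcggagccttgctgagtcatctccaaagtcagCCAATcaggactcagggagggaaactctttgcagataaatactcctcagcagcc

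TATAAA, the core of the TATA box, was found in 9 of the 23 members with a single promoter and in 8 of the 17 among them that fell, against 12.4% of all 32851 promoters of the same length. It began at position -27 relative to the start in Cxcl15 and at -30 in Cxcl3, and Ppbp held 2 copies, 1 of them at -30. The NF-kB consensus, bound by the transcription factor of that name, was found in Ccl20, Ccl9, Cxcl1, Cxcl10, Cxcl2 and Cxcl3, which is 6 of 23, against 3.90% of all promoters. In the row on chromosome 5, Pf4, not shown, held neither TATAAA nor this consensus, and Cxcl3, not shown, held both. The CCAAT box was found in 4 of 23, against 33.8%, and the interferon-stimulated response element core in Cxcl10 and Cxcl14, against 2.98%. These matches describe the letters in these windows and not the binding of a factor.

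**Figure D3:**
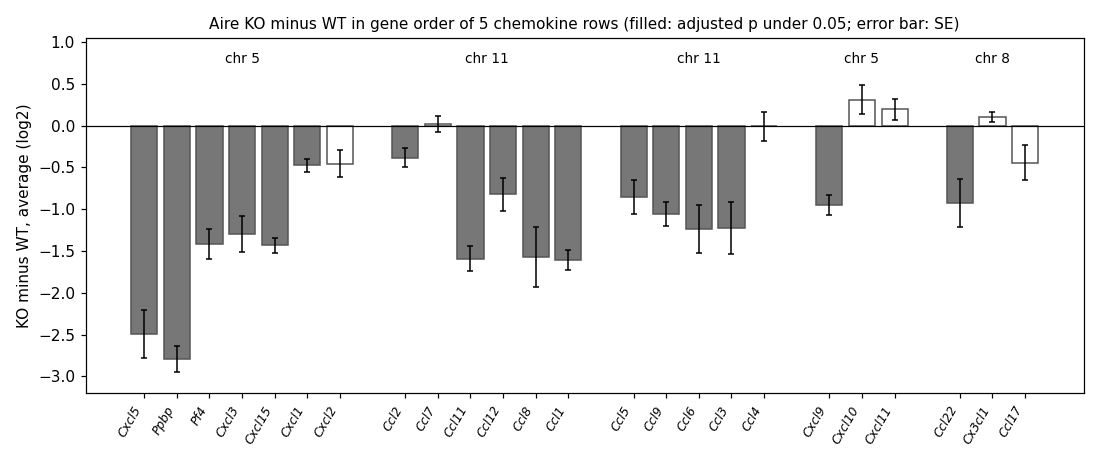
Average KO minus WT difference in log2 intensity for members that lie close together in the genome, in gene order, with SE as error bars and filled bars where the adjusted p was under 0.05. The first row on chromosome 5 runs from -2.79 for Ppbp to -0.46 for Cxcl2, and in the row of Cxcl9, Cxcl10 and Cxcl11 a single bar, Cxcl9 at -0.95, is filled.

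Pf4, a heparin-binding protein of platelet granules, fell as well. In B6 it measured 160.0, 211 and 197 units in KO mice and 629, 359 and 817 units in WT mice. BALB KO mice showed 212, 327, 211 and 241 units, against 869, 617, 579 and 820.3 units in BALB WT mice. NOD KO mice showed 207, 534 and 551 units, against 943, 712 and 917 units in NOD WT mice. No KO mouse overlapped a WT mouse of its strain, NOD KO 1 was the lowest of the NOD mice, and the difference was -1.42 ± 0.18 (limma, adjusted p = 1.46e-05). Since Pf4 and Ppbp are classical platelet genes, 10 platelet and megakaryocyte markers were examined in a list added after the values were seen. Their summed intensity was 1155 to 1593 units in KO mice and 1198 to 1622 units in WT mice. Of the 10 markers, 3 fell (Itga2b -0.16, Selp -0.51 and Vwf -0.84), against 10.1% of all probe sets. The part of platelets in these falls was not tested.

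Of the ligands of CXCR3, which draw activated T cells and natural killer cells and are known as genes induced by interferon-gamma, Cxcl9 alone fell. B6 KO mice had 2601, 2452 and 2575 units of Cxcl9, against 4700.3, 5766 and 4502 units in B6 WT mice. The BALB values were 1928, 1995, 1510.0 and 1039 units in KO mice, against 3975, 3829, 3278 and 2493 units in WT mice. NOD KO mice had 2417, 2330.2 and 3049 units and NOD WT mice 4527, 4332 and 4561 units. The groups did not overlap in any strain, BALB KO 4 was the lowest of all mice, and the average difference was -0.95 ± 0.11 (limma, adjusted p = 7.19e-06). A further Cxcl9 probe set read -0.77 and passed too.

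Cxcl10 and Cxcl11, which lie close to Cxcl9 with 1 other gene between Cxcl9 and Cxcl10, did not fall. Cxcl10 read 4940.1 to 7448 units in KO and 3768 to 5888 units in WT mice of B6, 1405 to 3748 and 1537 to 3312 units in BALB, and 5635 to 5962 and 4433 to 5014 units in NOD. The NOD ranges did not overlap, those of B6 and BALB did, and the average difference of Cxcl10 was 0.31 ± 0.17 (limma, adjusted p = 0.222; 0.0017 with pairs). Cxcl11 stood at 0.19 ± 0.13 (limma, adjusted p = 0.295), and RefSeq (GRCm38.p6), an assembly of C57BL/6J, lists it as a transcribed pseudogene. The Cxcl9, Cxcl10 and Cxcl11 differences were each tested against 0 and not against each other.

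Among 12 inflammatory CC ligands, 9 fell, with a median of -0.96 log2 units over the 12. Ccl1, a T cell product that acts on CCR8, was 59.1, 71.8 and 73.5 units in B6 KO mice, against 190.1, 183 and 177 units in B6 WT mice. It was 72.0, 47.9, 46.4 and 65.0 units in BALB KO and 243, 229, 185 and 117 units in BALB WT mice. In NOD it was 69.3, 74.3 and 68.2 units in KO and 218, 204 and 254 units in WT mice. The highest KO mouse of any strain was below BALB WT 4, the lowest WT mouse, and the difference was -1.61 ± 0.12 (limma, adjusted p = 1.74e-08).

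Ccl11, the eosinophil attractant eotaxin, gave 33.6, 39.2 and 33.8 units in B6 KO mice, against 117, 109 and 128 units in B6 WT mice. BALB mice gave 30.2, 30.6, 31.2 and 35.9 units in KO and 101, 132, 82.1 and 73.0 units in WT. NOD mice gave 30.9, 50.8 and 75.6 units in KO and 111, 119.8 and 191 units in WT. The groups did not overlap within a strain, and NOD KO 2 and NOD KO 3 were the highest of the KO mice. The difference was -1.59 ± 0.15 (limma, adjusted p = 2.58e-07).

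The monocyte attractant Ccl8 showed the largest difference of any member in B6 after Ppbp and Cxcl5, at -2.56 ± 0.65 log2 units. Its values were 147, 97.6 and 120.2 units in B6 KO mice, against 804, 553 and 790.3 units in B6 WT mice. In NOD they were 157, 629.6 and 1532 units in KO and 437, 743 and 1934 units in WT mice. NOD KO 3 stood above NOD WT 1 and 2, so the NOD groups overlapped, as did the BALB groups (124 to 494 units in KO and 469 to 829 units in WT mice). Its average of -1.57 ± 0.36 passed (limma, adjusted p = 0.00399), and over BALB and NOD alone it was -1.08 and did not.

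Of the other CC ligands, Ccl6 (-1.24), Ccl3 (-1.22) and Ccl9 (-1.06) passed at 2-fold or more. Ccl6 and Ccl9 are myeloid attractants of rodents, and Ccl3 is a macrophage inflammatory protein that attracts monocytes and T cells. Ccl3 read 57.6 to 111 units in KO and 303 to 433 units in WT mice of B6, 59.5 to 166 and 145 to 336 units in BALB, and 77.8 to 348 and 118 to 597 units in NOD, so its groups overlapped outside B6. A further Ccl6 probe set read -0.95 and passed, while a further Ccl9 probe set read -0.39 and missed the threshold (limma, adjusted p = 0.066). Ccl5 (-0.86), Ccl12 (-0.82) and Ccl2 (-0.38), which attract T cells or monocytes, fell by less than 2-fold. Ccl24 (-0.11), Ccl4 (-0.0089) and Ccl7 (0.018) did not pass. On chromosome 11 the CC ligands form 2 rows of neighbours, in which Ccl2, Ccl7, Ccl11, Ccl12, Ccl8 and Ccl1 held 5 members that fell, and Ccl5, Ccl9, Ccl6, Ccl3 and Ccl4 held 4.

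Of 11 homeostatic and thymic ligands, 6 fell, with a median of -0.51 log2 units over the 11. The B cell attractant Cxcl13, which organises lymphoid follicles through CXCR5, fell most. It measured 383, 419 and 336 units in B6 KO mice, against 1315, 1500.0 and 904 units in B6 WT mice. In BALB it measured 278, 351, 221 and 453 units in KO mice, against 1212, 1416, 658 and 422 units in WT mice. In NOD it measured 207, 140.3 and 113 units in KO mice, against 856, 1008 and 805 units in WT mice. The groups were apart in B6 and NOD and overlapped in BALB through BALB KO 4 and BALB WT 4. The average difference was -1.89 ± 0.20 (limma, adjusted p = 1.59e-06), and a further probe set fell by 1.38 on the log2 scale and passed.

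Xcl1, a ligand of XCR1 that is known to place dendritic cells in the thymic medulla, lay near the bottom of the scale. It had 26.2, 23.3 and 24.8 units in B6 KO mice, against 41.2, 36.8 and 40.8 units in B6 WT mice. BALB mice had 21.9, 22.4, 23.5 and 24.2 units in KO and 36.4, 40.2, 27.4 and 25.1 units in WT, and NOD mice 22.2, 25.2 and 25.5 units in KO and 32.4, 28.2 and 36.0 units in WT. No KO mouse reached a WT mouse of its strain, although BALB WT 4 at 25.1 units lay close to BALB KO 4 at 24.2 units. The difference was -0.51 ± 0.081 (limma, adjusted p = 0.000135), and all KO values were within the lowest 25% of array values.

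Ccl22 and Ccl17, ligands of CCR4 on thymocytes that are known products of medullary epithelium and of dendritic cells, varied widely between NOD mice. Ccl22 read 537, 851 and 771 units in B6 KO mice, against 1683, 2730.4 and 2006 units in B6 WT mice. It read 1143, 1375, 768 and 1197 units in BALB KO mice, against 1673, 1774, 1393 and 1867 units in BALB WT mice. NOD KO mice read 585, 2430.0 and 2052 units, and NOD WT mice 784, 3833 and 3431 units. NOD KO 2 and NOD KO 3 exceeded NOD WT 1, so the NOD groups overlapped, whereas those of B6 and BALB did not. The Ccl22 average was -0.93 ± 0.28 (limma, adjusted p = 0.0265), and without NOD WT 2, NOD WT 3 or NOD KO 1 it missed the threshold, at adjusted p-values of 0.0643, 0.061 and 0.0517. Ccl17 stood at -0.45 ± 0.21 and did not pass (limma, adjusted p = 0.142; 0.000129 with pairs).

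The dendritic cell and macrophage markers varied in the same way. Their mean was 7.67 and 8.54 to 8.88 log2 units in NOD KO mouse 1 and in NOD KO mice 2 and 3, and 7.71 and 8.78 to 9.27 in NOD WT mouse 1 and in NOD WT mice 2 and 3. NOD mice 1 belong to a different run of sample codes from NOD mice 2 and 3. Of the 12 markers measured, Adgre1 alone fell in KO mice (-1.38), against 10.1% of all probe sets. Batf3, Fcer1g and Zbtb46 rose, against 10.5%, and the other 8 markers did not pass. With the mean of these markers as a covariate, Ccl22 read -0.68 (limma, adjusted p = 0.00192), Ppbp -2.81 and Ccl8 -1.29, and all 3 passed. In that fit Ccl17 read -0.27 and did not pass (limma, adjusted p = 0.139), and Cxcl16 read 0.46 and passed as higher.

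**Figure D4:**
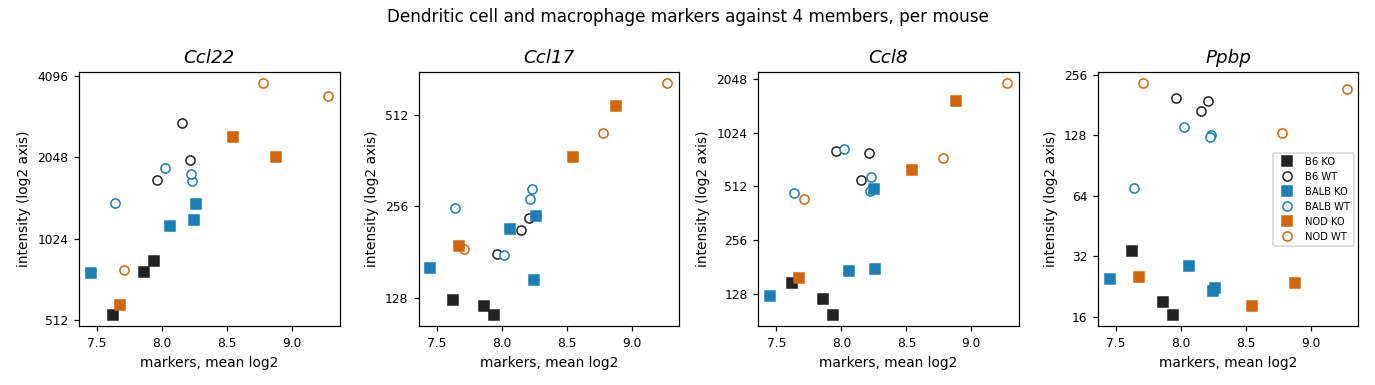
Intensity of Ccl22, Ccl17, Ccl8 and Ppbp (log2 axes, intensity units) against the mean log2 intensity of 12 dendritic cell and macrophage markers, 1 point per mouse (filled squares KO, open circles WT, coloured by strain). In NOD, mice 2 and 3 with marker means of 8.54 to 9.27 lie above mouse 1 of the same genotype in Ccl22, Ccl17 and Ccl8, while all Ppbp values of KO mice lie below those of WT mice.

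Ccl20, which attracts CCR6-bearing cells, fell by 0.73 on the log2 scale (limma, adjusted p = 0.000212). The mucosal epithelial ligands Ccl28 (-0.78 ± 0.074; limma, adjusted p = 4.45e-07) and Cxcl17 (-0.39 ± 0.073; limma, adjusted p = 0.000813) fell without overlap in any strain. A pair of dimmer Ccl28 probe sets read 0.07 and -0.036 and did not pass, so that call rests on 1 of 3 probe sets. Cxcl12, the ligand of CXCR4 that retains immature thymocytes in the cortex, stood at -0.57 ± 0.22 and missed the threshold (limma, adjusted p = 0.0838; 0.00429 with pairs). Cxcl14 read -0.14 ± 0.075, and its other, dimmer probe set fell by 0.28 and passed.

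Ccl25, the ligand of CCR9 that draws progenitors and thymocytes to thymic epithelium, went the other way in B6. B6 KO mice had 3200.2, 5403 and 5170.1 units, against 1789, 3429 and 2503 units in B6 WT mice. BALB KO mice had 3589, 3592, 2554 and 2572 units, against 2771, 2844, 2550.0 and 1830.4 units in BALB WT mice. NOD KO mice had 1033, 908 and 915 units, against 1341, 1031 and 923 units in NOD WT mice. The groups overlapped in each strain, B6 KO 2 and B6 KO 3 were the highest of all mice, and both are among the arrays lowest in the Gapdh difference. The B6 difference was 0.85 ± 0.24 (limma, adjusted p = 0.0375), and without B6 WT 2, B6 KO 2 and B6 KO 3 it was 0.60 and did not pass (adjusted p = 0.451). It did not pass without B6 WT 1 either, at 0.61 (adjusted p = 0.19). Ccl27a, a skin-associated ligand of CCR10, averaged 0.20 ± 0.082 (limma, adjusted p = 0.0863; 0.0369 with pairs).

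The membrane-bound ligands did not pass. Cxcl16, which binds CXCR6, read 746 to 1079 units in KO and 543 to 793 units in WT mice of B6, 694 to 995 and 512 to 656 units in BALB, and 645 to 949 and 508 to 1166 units in NOD. The BALB groups did not overlap, with KO higher, and those of B6 and NOD did. The average was 0.35 ± 0.14 (limma, adjusted p = 0.0859), which passed with mice of the same number as pairs (0.00061) and with the dendritic cell and macrophage markers as a covariate (0.000283). Cx3cl1, or fractalkine, averaged 0.10 ± 0.063 (limma, adjusted p = 0.251).

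With mice of the same strain and number fitted as pairs, 25 members were lower and 4 higher (Ccl25, Ccl27a, Cxcl10 and Cxcl16), against 16.0% and 21.0% of all probe sets. The members lower under pairing held all 22 of the unpaired fit. Same-numbered mice shared their deviations in BALB and NOD but not in each pair of B6.

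Taken strain by strain, the falls were most numerous in B6. There, 20 members were lower, against 5.54% of all probe sets, and 1, Ccl25, was higher, against 3.08%. BALB had 11 lower, against 4.26%, and NOD 7, against 2.81%, and neither had a member that passed as higher, against 2.57% and 1.42% of all probe sets. At an unadjusted p under 0.05, Ccl27a and Cxcl16 were higher in BALB, against 10.5% of all probe sets, and no member in NOD, against 6.53%. The 7 that fell in NOD, namely Ccl1, Ccl11, Cxcl13, Cxcl15, Cxcl5, Cxcl9 and Ppbp, fell in B6 and BALB as well. The medians of the members were -0.97 in B6, -0.53 in BALB and -0.43 in NOD. With same-numbered mice as pairs, 20 were lower in BALB (8.65% of all probe sets) and 16 in NOD (6.47%). Without B6 WT 2, B6 KO 2 and B6 KO 3, which leaves 1 B6 KO mouse assumed to vary like the other groups, 9 members were lower in B6, against 2.24%. Without B6 WT 1 there were 17, against 4.61%, and Ccl3, Ccl8 and Cxcl2 no longer passed there. Over BALB and NOD alone, an average chosen after seeing the data, 14 members fell, against 6.53%, and Ccl12, Ccl2, Ccl22, Ccl3, Ccl5, Ccl6, Ccl8 and Cxcl1 no longer passed.

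The counts of single strains do not show that strains differ, and the test of that difference gave little. No member of 35 passed the F test of whether the KO effect differs between strains (limma, adjusted), against 0.435% of all probe sets, and 7 had an unadjusted p under 0.05 (Ccl2, Ccl25, Ccl28, Ccl5, Ccl9, Cxcl1 and Ppbp), against 5.12%. Ccl5, the T cell attractant RANTES, read 1987, 1165 and 1476 units in B6 KO mice, against 5461, 4513 and 6328 units in B6 WT mice. In BALB it ranged over 3767 to 5530.3 units in KO and 5106 to 6092 units in WT mice, and in NOD over 2031 to 7127 and 3675 to 7668 units. The B6 groups did not overlap and those of BALB and NOD did, with differences of -1.84 ± 0.37 in B6, -0.33 ± 0.32 in BALB and -0.41 ± 0.37 in NOD (F test, adjusted p = 0.535). Cxcl1 had the smallest unadjusted p (0.00434), with -0.92 ± 0.15 in B6, -0.25 ± 0.13 in BALB and -0.25 ± 0.15 in NOD. With same-numbered mice as pairs, 8 members passed this F test (Ccl22, Ccl25, Ccl3, Ccl5, Ccl8, Cxcl1, Cxcl2 and Cxcl3), against 2.85%, among them Ccl5 at an adjusted p of 0.00222 and Cxcl1 at 0.0233. The replicate numbers were not shown to be pairs in B6 or in the other strains, and B6 holds the 4 arrays at the ends of the Gapdh range.

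Strains differed in the array signal of several members within a genotype. Sequence differences between strains under the probes were not examined, so they cannot be told apart from differences in RNA level. Most runs of sample codes hold mice of a single strain. No B6 WT mouse with a code shares a run with WT mice of another strain. Strain and run therefore cannot be fully told apart. Among KO mice 13 of 35 passed the F test, against 17.9% of all probe sets, and among WT mice 8 of 35 passed, against 11.3%. Those that passed in both genotypes were Ccl20, Ccl25, Ccl27a, Ccl9, Cxcl10 and Cxcl11.

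Ccl25 was lowest in NOD, with KO mice at 908 to 1033 units and WT mice at 923 to 1341 units, as given above by mouse. NOD minus B6 was -2.23 ± 0.24 log2 units among KO mice and -1.20 ± 0.24 among WT mice (limma F over the strains, adjusted p = 1.1e-05 and 0.00272). Its other probe set, dimmer, passed neither among WT mice nor among KO mice (limma F, adjusted p = 0.204 and 0.268). On that probe set NOD was not lowest among WT mice, with means of 5.70 in B6, 5.60 in BALB and 5.90 log2 units in NOD.

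Cxcl11 and Cxcl10 differed in BALB in opposite directions. Cxcl11 read 2971, 2776, 2685 and 2075 units in BALB KO and 3414, 2822, 3453 and 2117 units in BALB WT mice, against 1166 to 1672 units in B6 KO and 786 to 1501 units in B6 WT mice. BALB mice lay above all B6 and NOD mice, and BALB minus B6 was 0.84 ± 0.22 among KO and 1.46 ± 0.22 among WT mice (limma F, adjusted p = 0.00427 and 0.000116). For Cxcl10, BALB minus B6 was -1.27 ± 0.30 among KO and -0.90 ± 0.30 among WT mice, and all BALB mice lay below all B6 and NOD mice (limma F, adjusted p = 0.00744 and 0.0475). The gap was narrow, with BALB KO 2 at 3748 units and B6 WT 3 at 3768 units.

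Ccl27a was lower in BALB in both genotypes. Its values were 47.9, 52.0, 45.5 and 41.5 units in BALB KO and 47.1, 34.0, 40.7 and 32.2 units in BALB WT mice, while B6 and NOD mice ranged from 73.6 to 104 units. BALB mice did not overlap the others, and BALB minus B6 was -1.03 ± 0.14 among KO and -1.22 ± 0.14 among WT mice (limma F, adjusted p = 2.89e-05 and 1.05e-05).

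Ccl20 and Ccl9 were highest in B6 WT mice. Ccl20 read 389.8, 610.0 and 543 units in B6 KO and 798, 1562 and 1147 units in B6 WT mice, against 301, 265 and 242 units in NOD KO and 361, 436 and 372 units in NOD WT mice, with BALB between (316 to 415 in KO and 402 to 612 in WT). NOD minus B6 was -0.91 ± 0.22 among KO and -1.54 ± 0.22 among WT mice. For Ccl9 it was -0.75 ± 0.26 among KO and -1.59 ± 0.26 among WT mice. Cxcl5 and Ccl6 passed among WT mice and not among KO mice, with NOD minus B6 at -2.25 ± 0.52 and -1.83 ± 0.52 in WT and at -1.23 ± 0.52 and -0.47 ± 0.52 in KO mice. Among KO mice and not among WT mice 7 members passed. NOD minus B6 in KO mice was 1.49 ± 0.38 for Ccl17, 1.57 ± 0.37 for Ccl5, -1.35 ± 0.36 for Cxcl13, 0.68 ± 0.15 for Cxcl1 and 1.16 ± 0.29 for Cxcl2. For Ccl5, NOD KO 1 read 2031 units, near B6 KO 1 at 1987, while NOD KO 2 and 3 read 7127 and 6218. For Ccl17 the NOD KO mice read 189, 372 and 546 units, against 113 to 126 in B6 KO mice. NOD KO 2 and 3 are of another code run than NOD KO 1 and had higher dendritic cell and macrophage markers. For Ccl2, Ccl5 and Cxcl9 BALB minus B6 was larger in size than NOD minus B6, at 0.89 ± 0.20, 1.60 ± 0.34 and -0.70 ± 0.19. NOD minus BALB was -0.78 ± 0.20 for Ccl2, -0.023 ± 0.34 for Ccl5 and 0.72 ± 0.19 for Cxcl9. Other probe sets of these genes did not all follow. That of Cxcl9 passed among WT mice too (limma F, adjusted p = 4.34e-05). Among KO mice those of Cxcl13 (limma F, adjusted p = 0.24), Ccl9 (0.234) and Cxcl11 (0.0572) missed the threshold. Without B6 KO 2, B6 KO 3 and B6 WT 2, 5 members passed among KO mice (Ccl2, Ccl25, Ccl27a, Cxcl10 and Cxcl11, against 8.43% of all probe sets) and 5 among WT mice (Ccl20, Ccl25, Ccl27a, Ccl9 and Cxcl11, against 9.19%). Of the 9 members that passed in 1 genotype, Ccl2 alone then still passed.

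**Figure D5:**
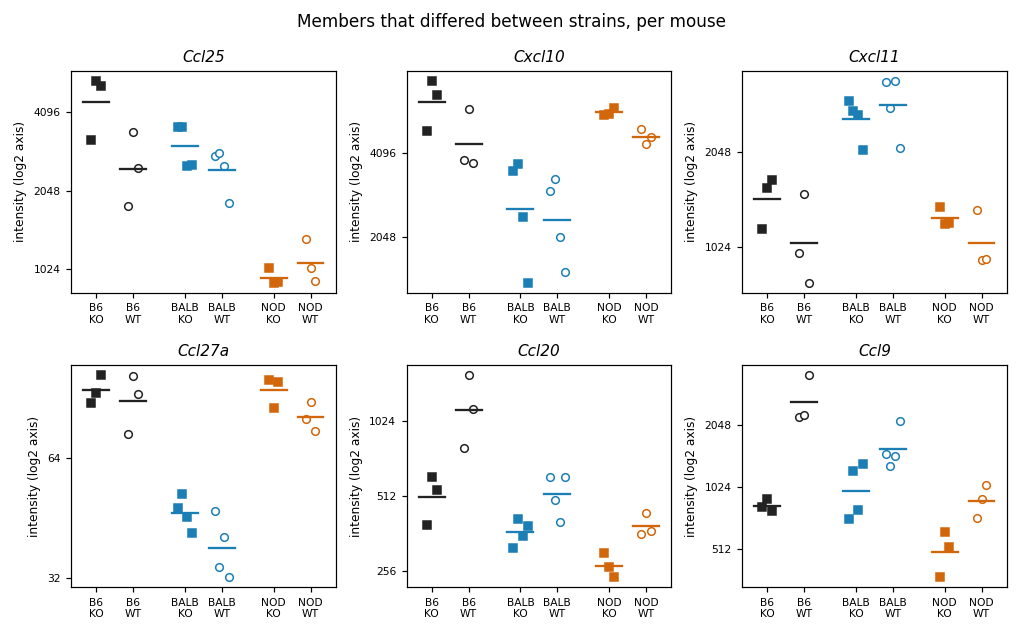
Intensity of 6 members that differed between strains in both genotypes, 1 point per mouse (filled squares KO, open circles WT), on log2 axes in intensity units, with group means of log2 values as lines. BALB stands apart in Cxcl11 and Ccl27a, and NOD in Ccl25. In Cxcl10 the highest BALB mouse, at 3748 units, lies just below the lowest B6 mouse, at 3768 units. The B6 KO and WT mice lie apart in Ccl20 and Ccl9.

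Of the 16 chemokine receptor genes measured of 18 listed, Ccr1 fell (-0.52 ± 0.17; limma, adjusted p = 0.0409), and Ccr6 (0.66 ± 0.17; 0.00876) and Ccr7 (0.83 ± 0.26; 0.0334), the receptors of Ccl20 and of Ccl19 and Ccl21, rose. That is 1 lower and 2 higher of 16, against 10.1% and 10.5% of all probe sets. The other 13 did not pass, and the median over the 16 was 0.037. Of 5 atypical receptors, which bind chemokines without signalling through G proteins, Ackr3, the scavenger of Cxcl12, fell most (-1.04 ± 0.10; limma, adjusted p = 6.62e-07), Ccrl2 (-0.39) and Ackr1 (-0.22) fell, and Ackr2, a scavenger of inflammatory CC ligands, rose (0.77 ± 0.13; limma, adjusted p = 0.000241).

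Genes that regulate chemokine transcription moved both ways. Of 18 measured of 20 listed, 4 fell and 3 rose, against 10.1% and 10.5% of all probe sets. The median over the 18 was 0.023 log2 units. The interferon regulatory factor genes Irf7 (-0.80 ± 0.12; limma, adjusted p = 0.000102) and Irf9 (-0.31) fell with Stat2 (-0.36) and Ifnar2 (-0.36). Irf8 (0.92 ± 0.18; limma, adjusted p = 0.00122), Irf1 (0.32) and the NF-kB subunit gene Relb (0.63) rose. Of 7 proteins that cleave, bind or present chemokines, 4 fell and none rose, against 10.1% and 10.5% of all probe sets. Those that fell were the gelatinase Mmp9 (-0.88 ± 0.095; limma, adjusted p = 1.94e-06), the protease Ctsl (-0.78) and the proteoglycans Sdc1 (-0.58) and Sdc4 (-0.41).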

How the data were processed

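The deposited values are linear intensities, 1 for each probe set on each array. The authors made them with RMA, per the submitters' processing notes, and the sources used here give neither its version nor which arrays were normalized together. Per the labels, RNA was amplified in 2 rounds before biotin labelling, which can favour the 3' ends of transcripts. No detection calls were used here. Groups came from the sample titles. Of 45101 probe sets, 64 controls were left out, and of the 45037 tested the annotation table gave 1 symbol for 34945, several for 932 and none for 9160. Of the 35 members, 13 had more than 1 probe set, 18 further probe sets in all.

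From the log2 intensity, the 6 group means were fitted to 20 arrays by limma 3.58.1 under R 4.3.3, with lmFit followed by eBayes and 14 degrees of freedom left for the residuals. Contrasts gave KO minus WT, averaged and by strain, and F tests gave strain differences. Benjamini-Hochberg adjustment ran over all probe sets tested, and an adjusted p under 0.05 was called. The number of mice limits the precision, and p-values rest on the spread between mice. The code was tested on simulated data.

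Deviations from the group means were correlated between same-numbered mice of a strain. The r ran from 0.456 to 0.658 in BALB and from 0.314 to 0.670 in NOD, and was 0.781, 0.719 and -0.13 in B6. The main fit paired no mice, and the fits with pairs paired same-numbered mice of every strain, B6 included. Same-numbered BALB and NOD mice also share a run of sample codes, so these correlations do not show that they are pairs. Members, gene lists and tests were chosen with earlier results of these data known. Values are given by a rule that named 27 members, for their place in the thymus, effect size, strain range, brightness or spread, and members outside it were chosen with their values seen, so that each count is complete. Alternatives covered scaling, dim probe sets, variance models, array weights, pairs, code runs, arrays fitted, probe sets averaged per gene, covariates and left-out mice. RefSeq (GRCm38.p6) gave gene order and promoters.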

Additional observations from a re-analysis of the deposited data

Results flagged for a closer look

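Of 70 groups of 4 mice examined (each member in BALB KO and in BALB WT mice), 3 held a mouse whose gap to the nearest of the others was large for the range of its group, where chance gives about 1 in 20 such groups. Cxcl15 read 8.16 log2 units in BALB WT 4, against 7.80 to 7.86 in the other BALB WT mice. Cxcl17 read 8.22 in the same mouse, against 7.94 to 7.97. Ppbp read 6.13 in BALB WT 3, against 6.96 to 7.13 in the other BALB WT mice, and still above every BALB KO mouse.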

How the results depend on the processing

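For the 27 members named by the rule, of 862 values under the alternatives 811 stayed on the same side of the threshold, 11 lost it, 40 gained it and none changed sign. Among the other members Ccl4 and Ccl7, which did not pass, changed sign in 9 and 3 of the 23 fits with pairs, with marker covariate or with left-out mice. Counted over all results, of 227 counts of members 210 stayed within 1.5 times. The members' median of the averaged difference lay between -0.77 and -0.51 under all of them. Scaling did not matter much: the median over all probe sets was 0.06, 0.07 and 0.06 as deposited, centred per array and quantile-normalized.

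With replicate numbers as a block, which pairs mice of 1 strain, 21 members passed in BALB, 16 in NOD and 8 for the strain differences of the KO effect. It changed no other count by over 1.5 times, and all members called without it were called with it. Array weights gave 12 in NOD, 2 for the strain differences of the KO effect and 23 for strains among KO mice. The code run as a block gave 17 in BALB, 1 for the strain differences and 7 among KO mice. It gave 8 for strains among WT mice, of which 5 had passed in the main fit. Shares of all probe sets are not given for array weights and code runs, so these counts say nothing particular to the members. A limit of 2-fold left 12 in the averaged contrast. Without B6 WT 2, B6 KO 2 and B6 KO 3, 9 passed in B6, 5 among WT and 5 among KO mice, and Ccl2 (adjusted p = 0.109), Ccl22 (0.0765) and Ccl5 (0.0521) missed the threshold in the averaged contrast. Averaged over BALB and NOD alone, chosen after seeing the data, 14 passed. The causes of these shifts were not tested.

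Leaving out each mouse in turn gave 20 to 25 members in the averaged contrast, 15 to 23 in B6, 10 to 13 in BALB and 5 to 8 in NOD. It gave 0 to 1 for the strain differences of the KO effect (1 without NOD KO 1), 5 to 9 for strains among WT mice (5 without B6 WT 2 or B6 WT 3) and 9 to 15 among KO mice. Array signal limits what can be said of Xcl1, Ppbp and other members whose KO values lie near the bottom of the scale. A filter at a mean log2 of 6 keeps 31 of 35 members.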

Other observations

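Markers of other cell types that the sort could hold moved in both directions in KO mice. Among all probe sets, 10.1% were lower and 10.5% higher in the same test. Of 8 cortical epithelial markers, Ackr3 and Ctsl fell and Ly75 and Tbata rose, and of 10 thymocyte markers Cd3g and Dntt fell. Of 6 B cell markers Blk and Cr2 rose, and of 5 tuft cell markers Dclk1 fell. Of 8 fibroblast markers 4 collagen or receptor genes fell (Col1a1, Col1a2, Col3a1 and Pdgfrb) and 3 rose (Dcn, Lum and Pdgfra), and of 8 endothelial markers Cd34 and Vwf fell and Pecam1 rose. Of 16 markers of class II high medullary epithelium, the keratin genes Krt5 (-0.69 ± 0.16) and Krt14 (-0.44 ± 0.14) fell, and Aire, Cd80 (0.85 ± 0.23), H2-Ab1, H2-Eb1 and Relb rose. Ackr3 and Ctsl also stand in the lists of chemokine-binding and chemokine-cleaving genes, and Relb in that of the regulators. The part of these cell types in the chemokine values was not tested.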
